A study of Mus musculus with 16 samples.

Results

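The mRNA levels of 9 genes of the JAK-STAT pathway were followed in bone marrow-derived dendritic cells (BMDCs) given the STING ligand c-di-GMP: the STAT genes Stat2, Stat3, Stat4, Stat5a, Stat5b and Stat6, the kinase genes Jak2 and Tyk2, and Irf9, which encodes the DNA-binding partner of STAT2. They were taken by gene symbol and are 9 of the 23356 genes in the deposited expression table. All 9 had usable values in every condition and entered every comparison.

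STATs are latent transcription factors in the cytoplasm. A cytokine receptor brings together JAK kinases, these phosphorylate tyrosines of the receptor and then of the STATs, and STAT dimers move to the nucleus and bind DNA. TYK2 serves the receptors of type I interferon, IL-10 and IL-12, and JAK2 those of GM-CSF, IL-12 and IFN-γ. STAT2 and IRF9 join a further STAT in ISGF3, the complex that type I interferon activates. STAT3 acts behind IL-6 and IL-10, STAT4 behind IL-12, STAT5A and STAT5B behind GM-CSF and IL-2, and STAT6 behind IL-4. Several STAT genes are themselves interferon targets. An mRNA level says nothing of phosphorylation, the step that activates a STAT.

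BMDCs of C57BL/6 background were cultured with GM-CSF and IL-4 from bone marrow of wild-type (WT), Tmem173-/-, Irf1-/- and Irf3/7-/- mice. Tmem173 encodes STING, the sensor of c-di-GMP, and Irf1, Irf3 and Irf7 encode transcription factors of interferon responses. Cells of each genotype were left untreated or given c-di-GMP for 18 h, at 25 μg/ml by the sample labels, although the legend of the published RNA-seq names a higher dose. In all, 16 samples, 2 for each of 8 conditions, were sequenced as stranded mRNA libraries. The authors combined both samples of a condition into 1 FPKM (fragments scaled to transcript length and library size) with a confidence interval, so the spread between samples could not be seen, no p-value was computed, and the depth reached by each sample cannot be read from the values. The labels do not say whether the samples of a condition came from separate mice. For the 9 genes the interval reached from 22.1 to 30.9% of the FPKM to either side, with a median of 24.5% over 72 values. A call of higher or lower required a difference of more than 2-fold after addition of 0.1 FPKM, intervals that did not overlap, and 1 FPKM or more in one of the conditions compared.

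The targeted genes were read first. In untreated and treated Tmem173-/- BMDCs Tmem173 lay at 8.97 and 7.49 FPKM. Elsewhere it ranged from 77.0 to 118 FPKM. Irf1 lay at 25.9 and 116 FPKM in Irf1-/- BMDCs against 149 and 245 FPKM in WT BMDCs. In Tmem173-/- BMDCs, where it was not targeted, Irf1 was also low, at 24.1 and 23.3 FPKM. Irf7 lay at 1.07 and 4.97 FPKM in BMDCs labelled Irf3/7-/- against 15.2 and 687 FPKM in WT BMDCs, and at 3.17 and 3.37 FPKM in Tmem173-/- BMDCs. Irf3 was lower in the untreated cells labelled Irf3/7-/- (7.74 against 19.9 FPKM) but not in the treated ones (20.2 against 15.8 FPKM), so after treatment Irf7 alone of the pair was below its WT level. Which part of each gene was deleted is not given in the sources used here, and an FPKM over the whole gene can keep reads from the rest.

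All 10 dendritic cell genes examined, such as Itgax and Cd74, were above 1 FPKM in every condition, with sums from 4989.9 to 8962 FPKM, although Flt3 stayed between 1.17 and 2.75 FPKM. Against WT, 3 of these 10 genes were called lower and 0 higher in untreated and in treated Irf1-/- BMDCs. Of all genes, 3.52% and 4.91% were called lower there. In untreated Tmem173-/- BMDCs 2 were called lower, beside 5.95% of all genes. In treated ones 3 were called lower and 1 higher, beside 13.5% and 12.9%. In treated Irf3/7-/- BMDCs 1 was called lower and 1 higher, beside 2.69% and 4.61%, and 0 were called in untreated ones. Genes of other cells also differed between genotypes. The 18 T and NK cell genes summed to 823 and 772 FPKM in untreated and treated WT BMDCs, 908 and 2534 FPKM in Irf3/7-/-, 31.1 and 44.1 FPKM in Irf1-/-, and 9.67 and 8.30 FPKM in Tmem173-/- BMDCs, where Gzma was listed at 0 in both conditions. The 7 neutrophil genes in the table summed to 20003 and 14533 FPKM in Tmem173-/- BMDCs and to between 1407 and 4015 FPKM elsewhere. Sums of 5 B cell genes stayed between 3.34 and 10.7 FPKM, and those of basophil and mast cell genes between 60.9 and 270 FPKM. Those of 7 macrophage genes ranged from 33.6 to 374 FPKM. They were 33.6 and 63.5 FPKM in untreated and treated Irf1-/- BMDCs against 144 and 276 FPKM in WT BMDCs. In such mixed bulk RNA, fewer cells of a type and less RNA per cell cannot be told apart.

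The positions in the table fall on the mouse build GRCm38. Stat2 (chr10:128270576-128292849) and Stat6 (chr10:127642986-127666703) lie on chromosome 10, both on the plus strand. Stat5b (chr11:100780731-100850585, minus strand), Stat5a (chr11:100859351-100885169, plus strand) and Stat3 (chr11:100886810-100939511, minus strand) are neighbours on chromosome 11, with 8765 bases between Stat5b and Stat5a and 1640 bases between Stat5a and Stat3. Stat4 is at chr1:52008244-52107184 (plus strand), Jak2 at chr19:29251828-29313080 (plus strand), Tyk2 at chr9:21104068-21131275 (minus strand) and Irf9 at chr14:55603985-55610030 (plus strand). The span given for Stat6 also holds Nab2, to which the table gives the same position.

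Some reads of these genes cannot be assigned by sequence alone. Of all 35-base words in the GENCODE M21 transcripts of Stat5a, 11.4% also occurred in transcripts of another gene, and 14.2% of those of Stat5b did, mostly each in the other. For Stat4 the share was 23.2%, all with the gene model Gm28177. It was 8.48% for Tyk2, 3.88% for Irf9 and at most 1.72% for Stat2, Stat3, Stat6 and Jak2. The split of reads between Stat5a and Stat5b is therefore uncertain for that part of their transcripts.

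The promoters of genes that interferon activates often carry the interferon-stimulated response element, the DNA element of ISGF3. RefSeq windows on GRCm38.p6, from 250 bases before to 50 bases after a start site, were found for all 9 genes (13 windows) and searched on both strands. Its core, GAAA followed after any 2 bases by another GAAA, was present in 2 of them, 1 of Stat2 and 1 of Stat4, against 3.44% of 32851 windows over all genes. A stricter form of the same core, with C as the first of the bases between, was present in the Stat2 window and in 0.685% of all windows. The core of the gamma-activated site that STAT dimers bind, TTCNNNGAA, was present in none of the 13 windows and in 8.30% of all. The 250 bases before the start site are shown for Stat2, the member that differed most between conditions, for Stat4, whose window also has a match, and for Irf9, the partner of STAT2, whose windows have none. Capitals mark the match, which begins 222 bases before the start site in Stat2 (chr10:128270248-128270497, plus strand) and 97 bases before it in Stat4 (chr1:52007990-52008239, plus strand). The Irf9 stretch is chr14:55603735-55603984, plus strand.
Stat2: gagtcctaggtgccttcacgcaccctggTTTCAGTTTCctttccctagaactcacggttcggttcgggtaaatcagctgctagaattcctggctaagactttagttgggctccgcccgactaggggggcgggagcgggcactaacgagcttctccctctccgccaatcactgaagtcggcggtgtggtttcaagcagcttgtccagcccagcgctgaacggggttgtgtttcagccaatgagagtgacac
Stat4: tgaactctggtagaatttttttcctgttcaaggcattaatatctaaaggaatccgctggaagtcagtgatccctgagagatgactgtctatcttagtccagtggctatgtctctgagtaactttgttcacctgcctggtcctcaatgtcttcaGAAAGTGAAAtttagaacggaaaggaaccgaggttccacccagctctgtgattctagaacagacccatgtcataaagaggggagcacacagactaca
Irf9: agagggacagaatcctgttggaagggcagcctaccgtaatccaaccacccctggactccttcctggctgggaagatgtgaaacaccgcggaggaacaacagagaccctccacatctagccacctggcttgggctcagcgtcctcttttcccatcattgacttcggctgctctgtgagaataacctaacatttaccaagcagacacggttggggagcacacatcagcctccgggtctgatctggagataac
A match describes letters in this window and was not tested for binding.

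In WT BMDCs, c-di-GMP raised 4 of the 9 genes, Stat2, Stat4, Stat5a and Stat5b, and lowered none. Over all 11201 genes tested, 10.5% were called higher and 9.96% lower. The median log2 change of the 9 genes was 0.95, and that of all genes tested was 0.0033. Stat5a lay just above the 2-fold limit with a log2 change of 1.02. Stat3 (0.95) and Tyk2 (0.93) lay just below it with intervals that did not overlap, so the count between 4 and 6 depends on where the limit is set.

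**Figure D1:**
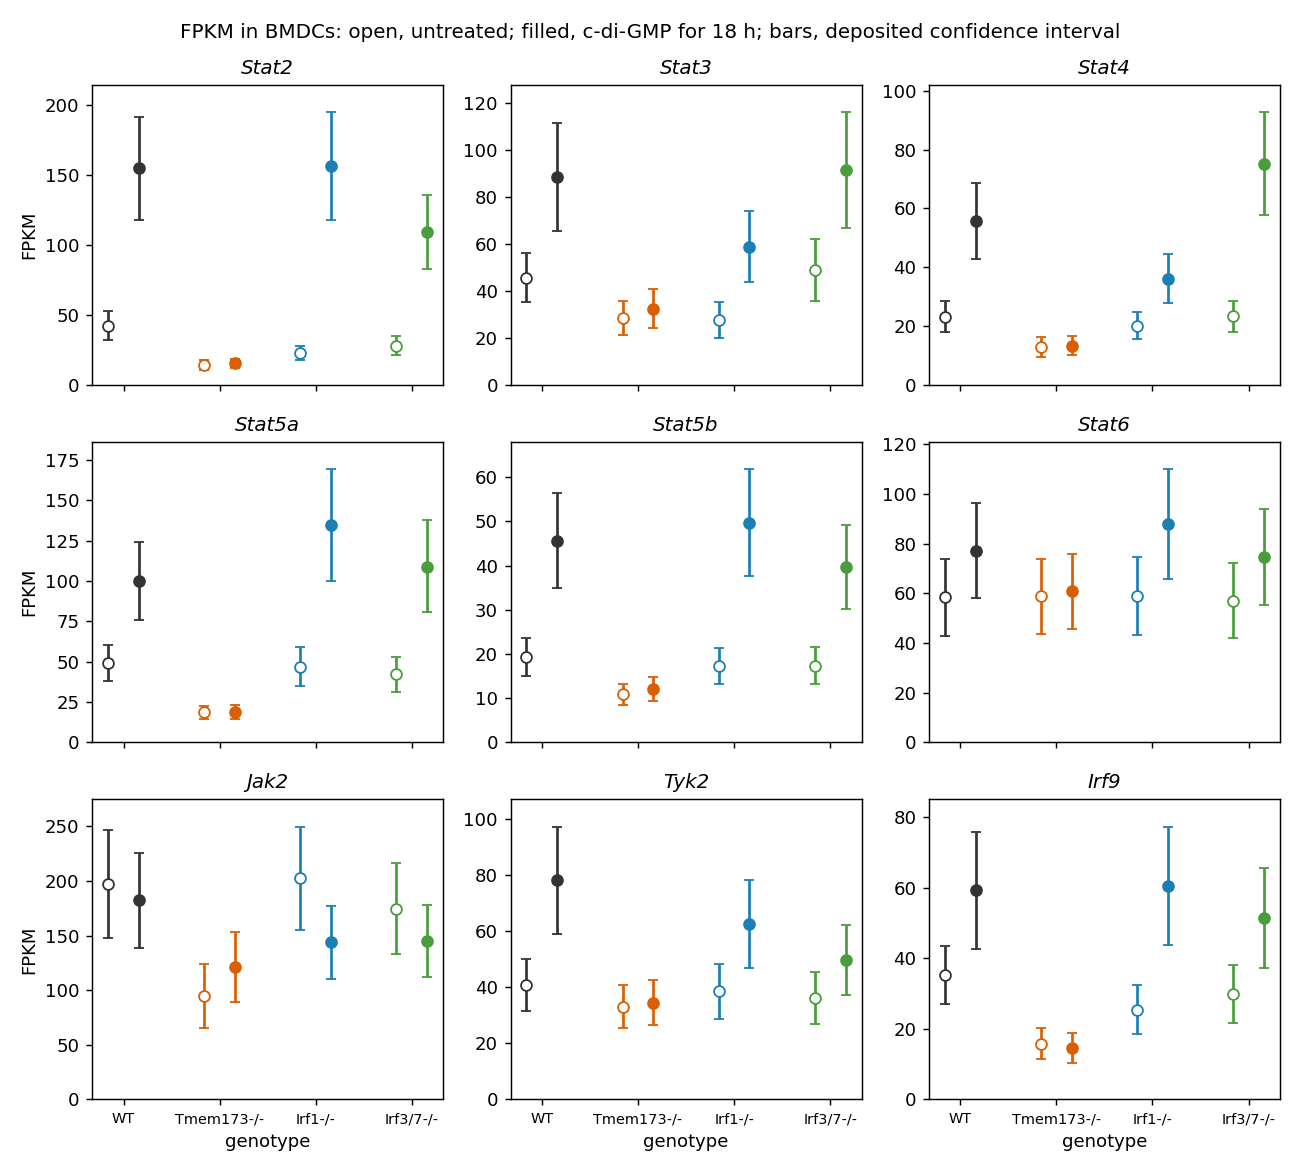
FPKM of the 9 genes (vertical axis, linear, a scale for each gene) in BMDCs of 4 genotypes, untreated (open) and after c-di-GMP for 18 h (filled), with bars for the confidence interval deposited by the authors. Stat2 shows the widest range, from 14.4 to 156 FPKM, while Stat6 stays between 57.0 and 87.9 FPKM, and in Tmem173-/- BMDCs open and filled points lie at similar heights.

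Stat2, the ISGF3 subunit that carries the transactivation domain, moved most. In WT BMDCs it went from 42.4 FPKM (interval 32.0 to 52.7) to 155 FPKM (118 to 192), a 3.65-fold rise for which the interval bounds allow 2.24- to 5.98-fold. It stood at 22.9 and 156 FPKM in untreated and treated Irf1-/- BMDCs, at 28.2 and 109 FPKM in Irf3/7-/- BMDCs, and at 14.4 and 15.4 FPKM in Tmem173-/- BMDCs. The 3 treated conditions with Tmem173 formed the top of the order and overlapped each other, and the lowest of them was apart from the next level, untreated WT. The full range was 10.8-fold, the widest of the 9 genes. Over all 9 genes, 4 of 63 neighbouring levels had separate intervals, this one, that of Stat5b at the same step, and 2 of Stat5a, which set its 3 treated levels with Tmem173 above the untreated ones and these above Tmem173-/-.

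Irf9, which gives ISGF3 its DNA specificity, moved less. It stood at 35.2 FPKM (27.1 to 43.3) in untreated and 59.2 FPKM (42.7 to 75.7) in treated WT BMDCs, a difference of 1.68-fold (0.986 to 2.79) that was below the limit for a call and had overlapping intervals. In Irf1-/- BMDCs it rose from 25.4 to 60.4 FPKM, which is 2.38-fold (1.35 to 4.16). It stood at 29.9 and 51.3 FPKM in Irf3/7-/- BMDCs, a log2 difference of 0.78 that was not called, and at 15.8 and 14.6 FPKM in Tmem173-/- BMDCs. The ratio of Stat2 to Irf9 FPKM went from 1.20 to 2.62 in WT, from 0.904 to 2.59 in Irf1-/- and from 0.944 to 2.13 in Irf3/7-/- BMDCs, and from 0.911 to 1.06 in Tmem173-/- BMDCs. The mRNA of the 2 partners was thus nearest to 1 to 1 in untreated cells and in cells without STING.

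The kinase genes behaved differently from each other. Tyk2 stood at 40.9 FPKM (31.6 to 50.2) in untreated and 78.1 FPKM (58.9 to 97.4) in treated WT BMDCs, 1.91-fold higher (1.17 to 3.08), with separate intervals but below the limit for a call. Its untreated and treated levels were 38.5 and 62.5 FPKM in Irf1-/-, 36.2 and 49.7 FPKM in Irf3/7-/-, and 33.1 and 34.6 FPKM in Tmem173-/- BMDCs. Within each of the 3 knockouts these intervals overlapped. Jak2, which serves the GM-CSF receptor, had the highest mean FPKM of the 9 genes, and was not called changed by c-di-GMP in any genotype. It stood at 197 (148 to 246) and 182 (139 to 226) FPKM in WT, 203 and 144 FPKM in Irf1-/-, 175 and 145 FPKM in Irf3/7-/-, and 94.7 and 121 FPKM in Tmem173-/- BMDCs. The treated value was the lower one in the 3 genotypes with Tmem173 and the higher one in Tmem173-/- BMDCs, each time with overlapping intervals. The ratio of Jak2 to Tyk2 FPKM went from 4.81 to 2.33 in WT BMDCs.

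Stat3, which transmits IL-6 and IL-10 signals, stood at 45.7 FPKM (35.2 to 56.2) in untreated and 88.6 FPKM (65.6 to 112) in treated WT BMDCs. Its levels were 27.7 and 58.9 FPKM in Irf1-/-, 49.1 and 91.4 FPKM in Irf3/7-/- and 28.5 and 32.5 FPKM in Tmem173-/- BMDCs. The rise was called in Irf1-/- BMDCs only (2.13-fold, 1.24 to 3.68), but the log2 changes in WT (0.95), Irf1-/- (1.09) and Irf3/7-/- BMDCs (0.89) lay close together and their difference was not tested.

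Stat4, the STAT of the IL-12 receptor, rose in WT BMDCs from 23.3 FPKM (18.0 to 28.6) to 55.6 FPKM (42.7 to 68.6), 2.39-fold (1.49 to 3.82). It stood at 20.2 and 36.2 FPKM in untreated and treated Irf1-/- BMDCs, at 23.3 and 75.2 FPKM in Irf3/7-/- BMDCs, and at 13.0 and 13.3 FPKM in Tmem173-/- BMDCs. The 3 untreated levels with Tmem173 were close together, and the treated ones spread from 36.2 to 75.2 FPKM. Treated Irf3/7-/- BMDCs exceeded treated Irf1-/- BMDCs 2.08-fold (1.30 to 3.31). Stat4 was the single one of the 9 genes called in that comparison, in which 6.62% of all genes were called higher.

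Stat4 is also an mRNA of T and NK cells, and the genes of those cells were measured beside it. Between treated Irf3/7-/- and treated Irf1-/- BMDCs, all 15 tested genes of the T and NK cell list were called higher, and the sum over the list was 2534 against 44.1 FPKM. Their part in that Stat4 difference was not tested. Within WT BMDCs Stat4 rose, and of 16 tested T and NK cell genes 0 were called higher and 4 lower. Their median log2 change was -0.42, and the sum was 823 before and 772 FPKM after c-di-GMP. The part of these cells in the WT rise was not tested. Within Irf3/7-/- BMDCs, where Stat4 rose 3.22-fold (2.02 to 5.15), 4 of 16 were called higher and 2 lower, with a median log2 change of 0.83, and the sum was 908 before and 2534 FPKM after c-di-GMP. Their part in that rise was not tested. Of all genes tested, 10.5% were called higher and 9.96% lower in the WT response, and 10.2% and 7.68% in the Irf3/7-/- response. In Tmem173-/- BMDCs Stat4 was at 13.0 and 13.3 FPKM, and the sum of all 18 genes was 9.67 and 8.30 FPKM. Which cells the Stat4 mRNA came from was not tested in any genotype.

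**Figure D2:**
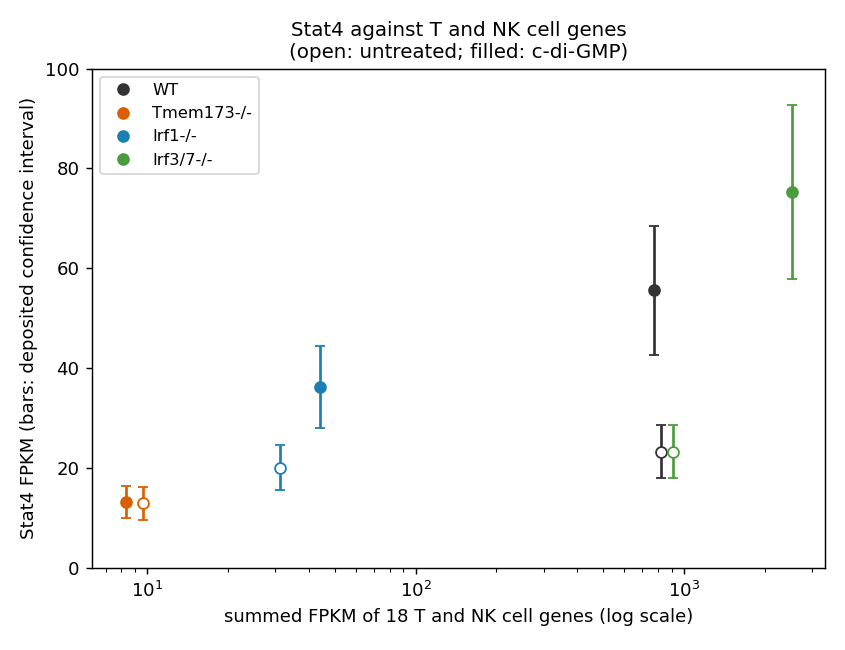
Stat4 FPKM (vertical axis, linear, bars for the deposited confidence interval) against the summed FPKM of 18 T and NK cell genes (horizontal axis, log scale) in the 8 conditions. Untreated and treated WT BMDCs have similar sums (823 and 772 FPKM) and Stat4 levels of 23.3 and 55.6 FPKM, and treated Irf3/7-/- BMDCs are highest on both axes. The medians of the list are 6.91 and 4.49 FPKM in untreated and treated WT BMDCs, so the sums rest mostly on its higher genes.

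Stat5a and Stat5b, neighbouring genes whose proteins act behind GM-CSF, both rose wherever Tmem173 was present. Stat5a went from 49.2 FPKM (37.9 to 60.5) to 100 FPKM (75.7 to 124) in WT, from 46.9 to 135 FPKM in Irf1-/- and from 42.3 to 109 FPKM in Irf3/7-/- BMDCs. Stat5b went from 19.2 FPKM (14.9 to 23.5) to 45.6 FPKM (34.9 to 56.4) in WT, from 17.2 to 49.7 FPKM in Irf1-/- and from 17.4 to 39.6 FPKM in Irf3/7-/- BMDCs. All 6 of these rises were called, between 2.03- and 2.89-fold. In Tmem173-/- BMDCs, untreated and treated levels were 18.6 and 18.9 FPKM for Stat5a and 10.8 and 12.1 FPKM for Stat5b. Stat5a was the higher of the pair in every condition, with a ratio of FPKM between 2.19 and 2.75 with Tmem173 and of 1.71 and 1.56 in untreated and treated Tmem173-/- BMDCs.

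Stat6, which transmits the IL-4 signal of the culture medium, varied least, 1.54-fold over the 8 conditions. It stood at 58.4 (42.8 to 74.0) and 77.3 (58.0 to 96.6) FPKM in untreated and treated WT, 59.0 and 87.9 FPKM in Irf1-/-, 57.0 and 74.7 FPKM in Irf3/7-/- and 58.9 and 60.8 FPKM in Tmem173-/- BMDCs. The treated value was nominally higher in each genotype and the intervals of all neighbours in the order overlapped. Stat6 was called in none of the 11 comparisons.

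The make-up of the STAT mRNA differed between untreated and treated BMDCs with Tmem173. The FPKM of the 6 STAT genes summed to 238 in untreated and 522 in treated WT BMDCs, and Stat2 made up 17.8% and 29.7% of these sums while Stat6 made up 24.5% and 14.8%. In Tmem173-/- BMDCs the sums were 144 and 153 FPKM, of which Stat2 made up 10.0% and 10.1% and Stat6 40.8% and 39.7%. In treated Irf1-/- and Irf3/7-/- BMDCs the sums were 524 and 499 FPKM, with 29.9% and 21.9% from Stat2. Stat2 was thus the largest of the 6 in treated WT and Irf1-/- BMDCs. In treated Irf3/7-/- BMDCs it was level with Stat5a (21.9% and 21.8%). Stat6 was the largest in treated Tmem173-/- BMDCs and in the untreated cells of every genotype, with 30.4% in Irf1-/- and 26.2% in Irf3/7-/- BMDCs. These shares cover these 6 genes alone.

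**Figure D3:**
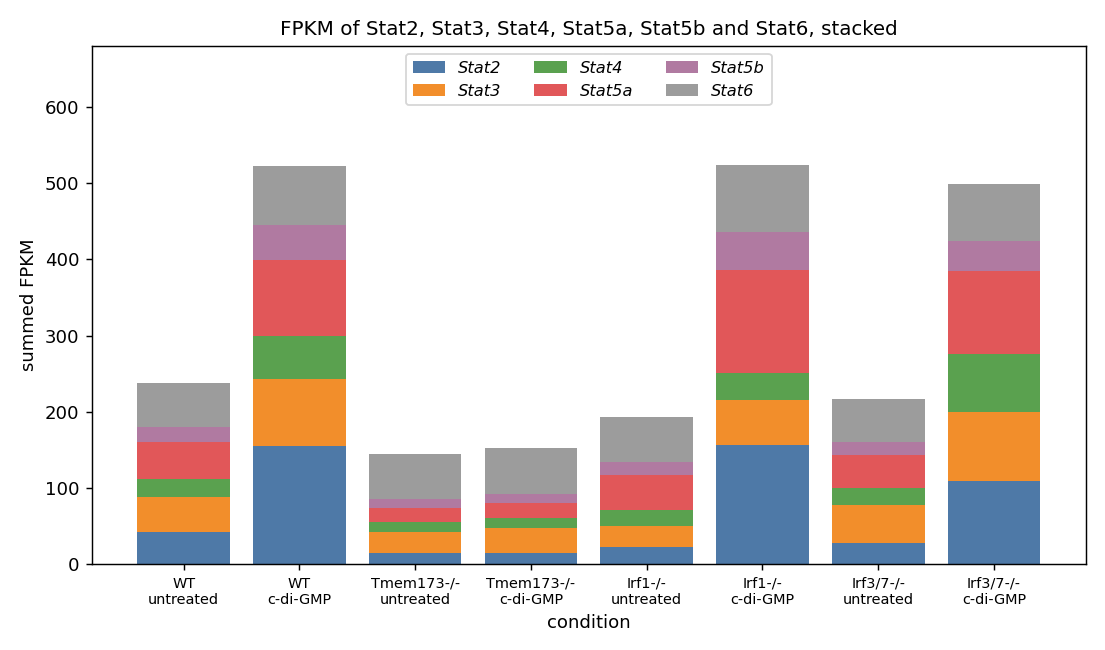
Summed FPKM of Stat2, Stat3, Stat4, Stat5a, Stat5b and Stat6 (vertical axis, linear from 0) in the 8 conditions, with a coloured segment for each gene. The stacks of the 3 treated conditions with Tmem173 reach 499 to 524 FPKM, and those of Tmem173-/- BMDCs 144 and 153 FPKM.

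The response to c-di-GMP was then compared between genotypes. In Tmem173-/- BMDCs none of the 9 genes was called in either direction, and 0.0552% of the 10867 genes tested were. Their log2 changes ran from -0.11 for Irf9 to 0.36 for Jak2. In Irf1-/- BMDCs 5 of the 9 were called higher, Stat2, Stat3, Stat5a, Stat5b and Irf9, against 9.67% of all genes tested, and their median log2 change was 1.09 against 0.0016 over all genes. In Irf3/7-/- BMDCs 4 were called higher, Stat2, Stat4, Stat5a and Stat5b, against 10.2% of all genes tested, with a median of 0.89 against 0.0045. None was called lower in these 2 genotypes.

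The rise of Stat2 was 6.82-fold (4.17 to 11.1) in Irf1-/- BMDCs and 3.87-fold (2.36 to 6.33) in Irf3/7-/- BMDCs. In Irf1-/- BMDCs the untreated level was 22.9 against 42.4 FPKM in WT and the treated level 156 against 155 FPKM, so the log2 change exceeded that of WT by 0.90. The change of Irf9 exceeded that of WT by 0.50 in Irf1-/- BMDCs, and that of Stat5a by 0.50. That of Stat4 was below WT by a log2 difference of -0.41 in Irf1-/- BMDCs and above it by 0.43 in Irf3/7-/- BMDCs. That of Tyk2 differed from WT by -0.48 in Irf3/7-/- BMDCs. None of these differences between responses could be tested with 1 value a condition.

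**Figure D4:**
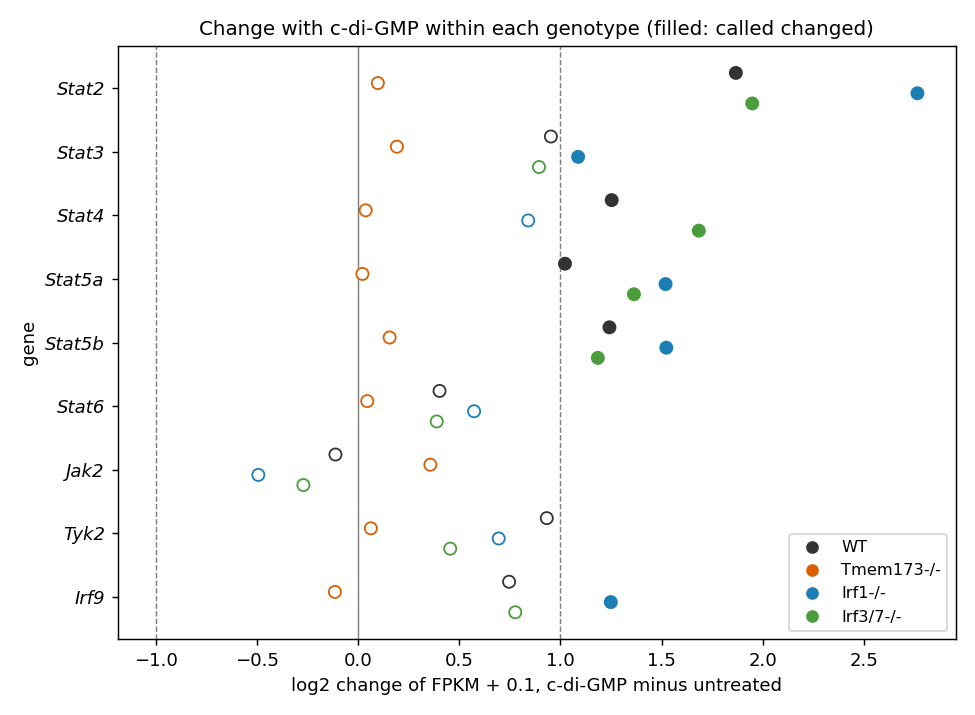
Log2 change of FPKM + 0.1 with c-di-GMP (horizontal axis) for the 9 genes (vertical axis) in 4 genotypes, filled where the change was called, with dashed lines at the 2-fold limit. Points of WT, Irf1-/- and Irf3/7-/- BMDCs lie right of 0 for every gene but Jak2, and the Tmem173-/- points lie between -0.11 and 0.36.

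Treated knockout BMDCs were compared with treated WT BMDCs, which all 3 comparisons share. In treated Tmem173-/- BMDCs 7 of the 9 genes were lower, all but Stat6 and Jak2, and 13.5% of all genes tested were called lower. Their median log2 difference was -1.91 against 0.018 over all genes. Stat2 was 10.0-fold lower (6.21 to 16.1), Stat5a 5.30-fold (3.27 to 8.54), Stat4 4.17-fold (2.58 to 6.78), Irf9 4.05-fold (2.26 to 7.26) and Stat5b 3.77-fold (2.36 to 5.98). Stat3 was 2.72-fold lower (1.61 to 4.60) and Tyk2 2.26-fold lower (1.38 to 3.66). Jak2 was at 121 against 182 FPKM and Stat6 at 60.8 against 77.3 FPKM, with overlapping intervals. In the same comparison 6 of 7 neutrophil genes were called higher, against 12.9% of all genes, and 13 of 15 tested T and NK cell genes lower. The part of these other cells in the lower STAT levels was not tested.

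In treated Irf1-/- BMDCs none of the 9 genes was called against treated WT, where 7.56% of all genes tested were called in either direction. Log2 differences ran from -0.62 for Stat4 and -0.59 for Stat3 to 0.43 for Stat5a, and those of Stat2 (0.015) and Irf9 (0.030) were near 0. For Stat2 the interval bounds allow a ratio between 0.615 and 1.65. Between the same conditions 12 of 15 tested T and NK cell genes and 5 of 7 macrophage genes were called lower and 0 higher. Of all genes, 4.91% were called lower. The part of these other cells in the STAT levels was not tested. In treated Irf3/7-/- BMDCs none was called either, where 7.3% of all genes tested were. Log2 differences ran from -0.65 for Tyk2 and -0.50 for Stat2 to 0.43 for Stat4. The absence of a call does not show equal levels, since for each gene the bounds still allow a difference of at least 1.65-fold in one direction.

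Untreated knockout BMDCs were compared with untreated WT BMDCs in the same way. In Tmem173-/- BMDCs 4 of the 9 genes were lower before any c-di-GMP was given, against 5.95% of all genes tested. Stat2 was 2.94-fold lower (1.80 to 4.76), Stat5a 2.65-fold (1.66 to 4.20), Irf9 2.23-fold (1.34 to 3.78) and Jak2 2.08-fold (1.19 to 3.76). Stat4 and Stat5b had separate intervals, at log2 differences of -0.84 and -0.82, and were not called. Stat6 differed by 0.011. In this comparison 6 of 7 neutrophil genes were called higher, against 5.04% of all genes, and 15 of 16 tested T and NK cell genes lower, and their part in the lower levels was not tested.

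In untreated Irf1-/- BMDCs none of the 9 was called, where 4.78% of all genes tested were called in either direction. Stat2 stood at 22.9 against 42.4 FPKM (log2 difference -0.88) and Stat3 at 27.7 against 45.7 FPKM (-0.72), both with separate intervals. Between the same conditions 14 of 16 tested T and NK cell genes and 6 of 7 macrophage genes were called lower and 0 higher. Of all genes, 3.52% were called lower. The part of these other cells in the STAT levels was not tested. In untreated Irf3/7-/- BMDCs none was called, where 2.04% of all genes tested were. Log2 differences there ran from -0.59 for Stat2 to 0.10 for Stat3.

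**Figure D5:**
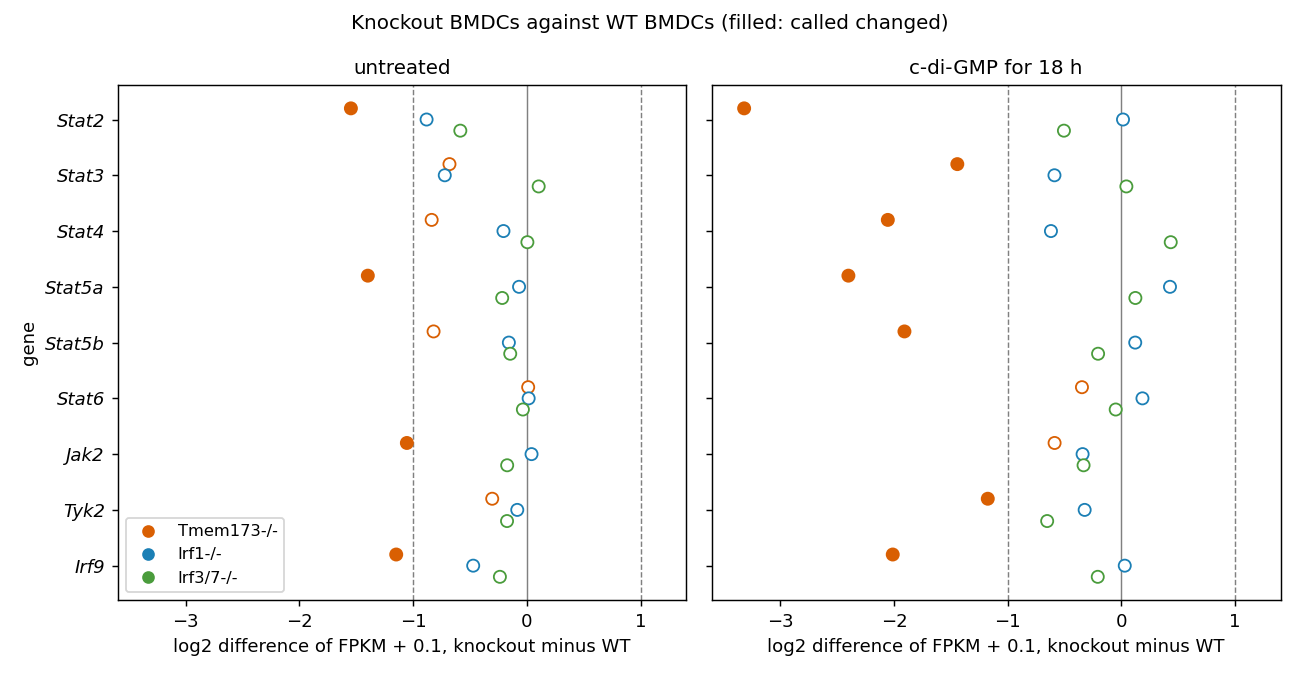
Log2 difference of FPKM + 0.1 between knockout and WT BMDCs (horizontal axis) for the 9 genes (vertical axis), untreated in the left panel and after c-di-GMP for 18 h in the right, filled where the difference was called. All filled points are Tmem173-/-, 4 untreated and 7 treated, and Stat2 after treatment lies farthest left at -3.32.

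Other genes of the pathway were counted in lists. Of the 17 ISGF3 target genes all were called higher with c-di-GMP in each of WT, Irf1-/- and Irf3/7-/- BMDCs, with median log2 changes of 4.85, 6.17 and 4.39. Of all genes tested, 10.5%, 9.67% and 10.2% were called higher in WT, Irf1-/- and Irf3/7-/- BMDCs. Irf7, itself a target on this list and deleted in the last genotype, is counted there on its remaining reads. The largest rises in WT were Rsad2 (8.25), Oasl1 (6.66), Ifit3 (6.27) and Ifit1 (5.81). In Tmem173-/- BMDCs 0 of 12 tested were called, where 0.0552% of all genes were called in either direction. Against untreated WT, 15 of the 17 were lower in untreated Tmem173-/- BMDCs, where 5.95% of all genes were. In untreated Irf1-/- and Irf3/7-/- BMDCs 11 and 10 of the 17 were lower, against 3.52% and 0.863% of all genes. The count in untreated Irf3/7-/- BMDCs includes the deleted Irf7, at 1.07 against 15.2 FPKM. Against treated WT, all 17 were lower in treated Tmem173-/- BMDCs, where 13.5% of all genes were. In treated Irf1-/- BMDCs 2 were lower (Rsad2 and Ifi44), against 4.91% of all genes, and in treated Irf3/7-/- BMDCs 4 were, against 2.69%, with Irf7 at a log2 difference of -7.08.

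Of the 27 receptor chains that use JAKs, 25 were tested in the WT response, and 11 were called higher and 1 lower, with a median log2 change of 0.82, where 10.5% of all genes were higher and 9.96% lower. The largest were Il2ra (2.29, from 14.4 to 71.0 FPKM), the chain that gives the IL-2 receptor high affinity, Il12rb2 (1.78), the IL-12 receptor chain that recruits STAT4, Il10ra (1.76, from 34.4 to 117 FPKM), the ligand-binding IL-10 receptor chain that recruits STAT3, and Il7r (1.68). Against treated WT, 8 of 25 fell below and 3 exceeded WT in Tmem173-/- BMDCs, where 13.5% of all genes were lower and 12.9% higher. In Irf1-/- BMDCs 3 of 23 fell below and 0 exceeded WT, against 4.91% and 2.65% of all genes. For Irf3/7-/- BMDCs the counts were 1 and 2 of 23, against 2.69% and 4.61% of all genes. Il12rb1, the IL-12 receptor chain that binds TYK2, was at 24.3 FPKM in treated WT, 0.144 FPKM in treated Irf1-/-, 0.281 FPKM in treated Tmem173-/- and 32.2 FPKM in treated Irf3/7-/- BMDCs. That order of the genotypes is also the order of the T and NK cell sums except between Tmem173-/- and Irf1-/-.

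Of the 18 negative regulators, 3 were called higher and 1 lower in the WT response, with a median log2 change of 0.40. These are small counts beside the 10.5% and 9.96% of all genes called higher and lower. Usp18, an inhibitor at the type I interferon receptor, went from 42.3 to 404 FPKM (3.25), and Socs3, which blocks JAKs at IL-6 family receptors, from 29.2 to 172 FPKM (2.55). Pias2, which inhibits STATs, was higher by 1.02 and Socs6 lower by a log2 change of -1.53. In treated Tmem173-/- BMDCs 6 were lower and 1 higher than in WT, beside 13.5% and 12.9% of all genes, led by Usp18 (-6.12), Socs1 (-3.34) and Socs3 (-3.11). In treated Irf1-/- BMDCs 1 was called, Socs6, higher by 1.34, and in treated Irf3/7-/- BMDCs none.

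Targets of single STATs did not all follow the mRNA of their STAT. For STAT6, whose own mRNA was not called, 6 of 10 tested target genes were called lower in the WT response and 0 higher, with a median log2 change of -1.39, where 9.96% of all genes were called lower. The largest falls were Mrc1 (-3.55), Clec10a (-2.69) and Mgl2 (-2.60), all C-type lectins, and Alox15 (-2.44), a lipoxygenase that IL-4 induces. The count was 7 of 10 in Irf1-/- and 6 of 10 in Irf3/7-/- BMDCs, where 7.81% and 7.68% of all genes were lower, and 0 of 11 in Tmem173-/- BMDCs. In untreated Tmem173-/- BMDCs, however, 7 of 11 were already lower than in untreated WT and 1 was higher, and the median level of the list was 28.6 against 500 FPKM. Of all genes, 5.95% were called lower and 5.04% higher in that comparison. Beside the 10.5% of all genes called higher in WT, 3 of 8 STAT3 targets were, Socs3, Zfp36 (1.27) and Junb (1.09). Of 6 STAT5 targets 2 were, Osm (1.39), a cytokine, and Ccnd2 (1.05), a cyclin. With 8 and 6 genes these shares rest on few calls. Of 6 tested genes of the STAT4 pathway 3 were called higher and 3 lower. Ifng, a target of STAT4 in lymphocytes, went from 34.6 to 299 FPKM (3.11), and was listed at 0 in both Tmem173-/- conditions. Tbx21, the factor that acts with STAT4 in lymphocytes, fell (-1.31). In the Tmem173-/- response none of the tested genes on these lists was called.

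The 9 genes were also compared in how their levels ran over the 8 conditions, as Pearson correlations of log2(FPKM + 0.1). The 8 values share genotypes, controls and libraries, so these are descriptions. Stat2 and Stat5b ran closest together (r = 0.992), followed by Stat5a with Irf9 (0.981), Stat5a with Stat5b (0.974) and Stat2 with Irf9 (0.972). Jak2 ran unlike the rest, with r between -0.014 with Stat6 and 0.50 with Irf9. Among 7373 other genes that reached 10 FPKM, those most like Stat2 were D17Wsu92e, Oasl1 and Oas3, each with r of at least 0.995, and 370 genes were above 0.95. Those most like Stat4 were Runx3 (0.996), Junb (0.986) and Tspan13 (0.985), with 124 above 0.95. Those most like Stat5a were S1pr3 (0.994), Hbb-b1 (0.993) and Nck2 (0.993), and those most like Stat5b were Arhgap28, Cd86 and Slfn5 (each 0.997). With so many genes this close, likeness over 8 conditions singles out none of them.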

How the data were processed

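RNA of 16 BMDC samples, 2 for each of 8 conditions, was sequenced by the authors with a stranded kit and 35-bp paired-end reads. The deposited table holds FPKM values per gene and condition, with confidence bounds and a status, which the authors made with Cuffdiff from both samples together. The submitters' processing notes give Cuffdiff 1.06 and mm9, but 21454 of 21681 genes with a single GENCODE M21 gene of their name overlap it on GRCm38, so positions are given on GRCm38. Neither the aligner nor Cuffdiff's strand setting is given in the sources used here. A column named TM173GDP was read as treated Tmem173-/- BMDCs. Columns of 1 further condition (4 columns) were not used. Remaining members of the STAT and JAK families are not reported here.

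Fold changes were computed on log2(FPKM + 0.1) over the whole table. A gene was tested with status OK in both conditions and at least 1 FPKM in one, and called as stated in the report. The range of a fold comes from dividing the bounds of both intervals, which hold the authors' estimate of error and not the spread between samples seen here. Alternatives were a pseudocount of 1 FPKM, no filter on low FPKM, a fold limit of 1.5, the fold change alone, and median centring. The calls were tested on simulated data, with noise taken from the deposited intervals and planted changes well above the 2-fold limit. That simulation does not cover changes near the limit or the spread between samples. Besides the 9 genes, at most 4 called genes per list with the largest change were named, with the targeted genes and, for each gene called in the WT response, the 3 genes most correlated with it. Single marker genes and Il12rb1, Ifng and Tbx21 in conditions outside this rule were named after their values were seen. The genes and lists were chosen with earlier results of these data known. Scripts ran under python 3.11.15 with pandas 2.3.3 and numpy 2.4.6, and figures were drawn with matplotlib 3.10.9.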

Additional observations from a re-analysis of the deposited data

How the results depend on the processing

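Of 99 pairs of a gene and a comparison 25 were called, and all 25 were also called under each of the 5 alternatives, with 0 reversed. No filter on low FPKM, the lower fold limit and the fold change alone only relax the rule, so they could add calls but not remove or reverse one. Only the pseudocount and median centring could have removed a call. A pseudocount of 1 FPKM, no filter on low FPKM, the fold change alone and median centring changed no call. A fold limit of 1.5 added 8 calls. With it, 2 genes (Stat2 and Stat3) were called lower in untreated Irf1-/- against untreated WT BMDCs, where none was called at 2-fold. The cause of the difference is the lower limit itself. Median centring subtracted between -0.037 and 0.048 from the log2 differences. No paired analysis was possible because the deposited table has 1 value per condition, and for the same reason no sample could be left out. The depth reached, which FPKM do not show, and the lack of values per sample limit every comparison.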
